A study of Rattus norvegicus with 4 samples.

Results

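The complement genes described here are 9 genes of the classical and alternative pathways measured in rat vessels: C1qa, C1qb, C1r, C1s, C2, C3, Cfb, Serping1 and C5ar1. Their probes were found by matching the RefSeq accession of each array probe to these gene symbols, which gave 10 probes, 2 of them for C1s. All 9 genes were above background on all 4 arrays, out of 9962 named genes above background on at least 1 array. Vessel RNA of male rats in 4 groups was measured on 1-colour Agilent arrays, each group having 1 array. The groups were vessels of KO rats, which carry a deletion of PKCbeta, given angiotensin II (Ang II) for 24 h; KO control vessels; vessels of WT (Wistar) rats given Ang II for 24 h; and WT control vessels. The series text speaks of 4 rats of each genotype, whereas each group has 1 array, and the sources used here do not give whether RNA was pooled. The vessel, the dose of Ang II and the age of the rats are likewise not given, nor is whether the KO line and the Wistar rats share a background.

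With 1 array for each group, no difference between single arrays has a replicate check, and differences of at least 2-fold are named by size alone. Values are the log2 processed signal of a probe after subtracting the 75th percentile of its array, so that 0 is the signal at that percentile. Prkcb, the deleted gene, had signals of 1.89 on the KO Ang II array and 1.94 on the KO control array, not above background. Its signals were 18.0 on the WT Ang II array and 14.8 on the WT control array, so it was lower in KO by at least 2.54-fold with Ang II and at least 2.11-fold without. Whether its probes lie in the deleted part is not known here. All 7 smooth muscle markers examined were above background on all 4 arrays, Myh11, Acta2, Tagln and Cnn1 among them, as were 6 of 8 endothelial and 6 of 8 fibroblast markers. Between 40.7% and 43.6% of probes were above background on an array. In bulk tissue, fewer cells of a type and less RNA per cell cannot be told apart.

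Complement is a cascade of blood and tissue proteins that tags particles for uptake and recruits leukocytes. In the classical pathway, C1q binds its target and activates the proteases C1r and C1s, which cleave C4 and C2 to form the enzyme that cleaves C3. Factor B, the product of Cfb, plays the corresponding part in the alternative pathway, and the C1 inhibitor, the product of Serping1, blocks C1r and C1s. Cleavage of C5 releases C5a, which acts through C5ar1 on myeloid cells. The liver makes most circulating complement, whereas C1q is made largely by macrophages, and fibroblasts, smooth muscle and endothelium can also make components locally.

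In the rat genome, C1qa, C1qc and C1qb are consecutive genes on chromosome 5, C1r and C1s are neighbours on chromosome 4, C2 and Cfb are neighbours on chromosome 20, and C5ar2 and C5ar1 are neighbours on chromosome 1. Promoter sequences from RefSeq (build GRCr8, 250 bases before to 50 after each gene's start) were matched for 4 of the 9 genes. All 4 that were found are printed, whatever their pattern over the arrays. Capitals mark matches to 6 motifs searched on both strands.
C1qa, chr5:154419884-154420183, minus strand: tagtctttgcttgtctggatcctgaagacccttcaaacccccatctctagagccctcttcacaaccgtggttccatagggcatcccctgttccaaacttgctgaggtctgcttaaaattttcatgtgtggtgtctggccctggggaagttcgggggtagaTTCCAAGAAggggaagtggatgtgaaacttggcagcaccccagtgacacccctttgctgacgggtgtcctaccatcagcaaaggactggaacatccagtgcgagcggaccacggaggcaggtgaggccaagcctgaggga
C1qb, chr5:154407778-154408077, minus strand: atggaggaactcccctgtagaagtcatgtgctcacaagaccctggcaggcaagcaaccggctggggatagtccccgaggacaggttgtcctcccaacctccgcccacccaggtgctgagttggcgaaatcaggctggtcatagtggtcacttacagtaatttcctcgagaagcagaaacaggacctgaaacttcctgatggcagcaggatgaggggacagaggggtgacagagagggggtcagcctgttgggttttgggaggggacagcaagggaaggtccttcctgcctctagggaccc
C1r, chr4:159098763-159099062, plus strand: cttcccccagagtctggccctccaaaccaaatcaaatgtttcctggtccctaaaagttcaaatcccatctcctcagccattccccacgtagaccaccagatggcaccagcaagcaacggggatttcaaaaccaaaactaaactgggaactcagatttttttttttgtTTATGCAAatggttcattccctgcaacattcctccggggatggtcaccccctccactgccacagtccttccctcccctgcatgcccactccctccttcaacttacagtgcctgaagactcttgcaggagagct
C3, chr9:2201290-2201589, minus strand: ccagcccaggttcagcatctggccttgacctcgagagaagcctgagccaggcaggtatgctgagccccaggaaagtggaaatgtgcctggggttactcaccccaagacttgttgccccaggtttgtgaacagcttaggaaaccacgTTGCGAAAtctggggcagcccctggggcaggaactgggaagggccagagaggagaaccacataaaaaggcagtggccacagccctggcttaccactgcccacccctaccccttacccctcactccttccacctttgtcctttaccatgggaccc

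The capitals in C1qa are a match to a gamma-activated site (TTCNNNGAA), an element of interferon-responsive promoters, at -90 to -82 from the start. Those in C1r, at -83 to -76 and read on the opposite strand, and in C3, at -104 to -97, match the C/EBP motif (TTGCNNAA). C1qb held none of the 6 motifs in this window. Of 33469 rat promoters of the same length, 8.87% held the gamma-activated site and 10.6% the C/EBP motif. The other motifs searched were PU.1 (GAGGAAG, 12.4%), the interferon-stimulated response element (3.92%), NF-kB (1.3%) and the TATA box (TATAAA, 14.2%). No match overlapped a match to another of the motifs, and a match is a description of letters and not a binding site. The motifs were chosen with the expression values known.

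Messages for C1q, the recognition molecule of the classical pathway, were lower in KO than in WT vessels, and more so without Ang II. C1qa, which encodes the A chain, was at 2.95 on the KO Ang II array, 2.59 on the KO control array, 3.17 on the WT Ang II array and 3.30 on the WT control array. C1qb, which encodes the B chain, was at 3.02, 2.74, 3.33 and 3.83 on the same arrays in the same order. Both genes were highest on the WT control array and lowest on the KO control array. Of genes above background on all 4 arrays, 20.1% were highest on the former and 25.3% lowest on the latter. The KO arrays of C1qa and C1qb lay below the WT arrays without overlap, as for 31.2% of those genes.

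Without Ang II, C1qb was 2.13-fold lower in KO than in WT (log2 ratio -1.09) and C1qa was 1.63-fold lower (-0.71). With Ang II the differences were 1.24-fold for C1qb (-0.31) and 1.16-fold for C1qa (-0.21). In KO vessels Ang II went with higher C1qa (0.37) and C1qb (0.27), and in WT vessels with lower C1qb (-0.51) and C1qa (-0.13). Each of these probes was printed at 10 spots, and the SD of log2 signal between spots of an array was 0.051 to 0.074 for C1qa and 0.045 to 0.094 for C1qb. This spot error is technical and holds nothing of the spread between animals.

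C1qc, the gene of the third C1q chain, was not among the 9 and gives a further reading of the same protein. It was at -0.46 on the KO Ang II array, -1.07 on the KO control array, 0.14 on the WT Ang II array and -0.29 on the WT control array. Its KO arrays also lay below its WT arrays, with log2 ratios of -0.60 with Ang II and -0.78 without. Unlike C1qa and C1qb, it was higher with Ang II in WT vessels as well (0.43), beside 0.61 in KO vessels. Its signals were dim, between 22.6 and 68.8, and rested on 1 spot.

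**Figure D1:**
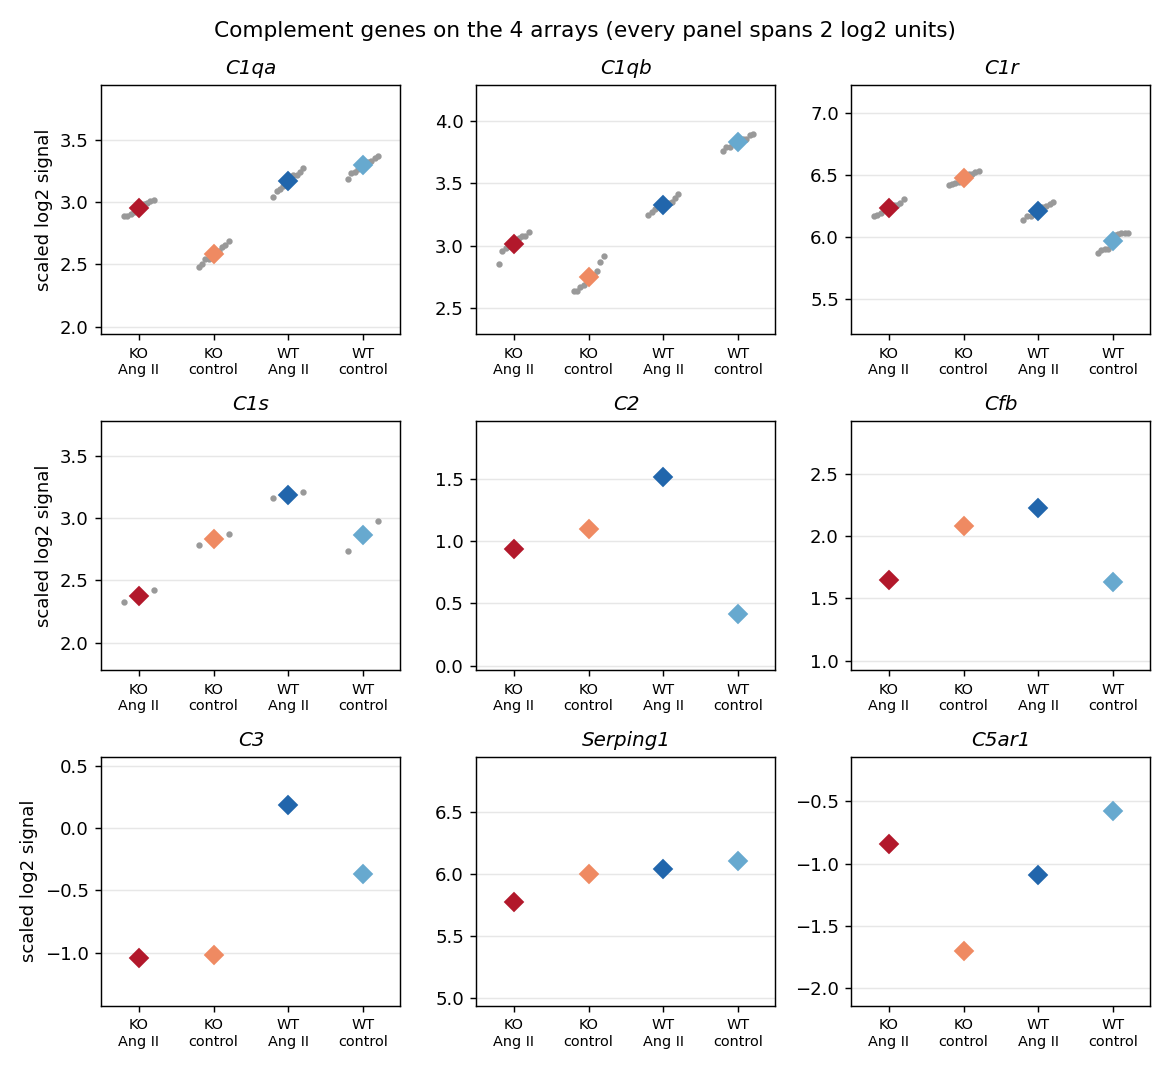
Scaled log2 signal (0 is the array's 75th percentile) of the 9 complement genes on the 4 arrays, with diamonds for the gene's value, grey dots for single spots where a probe has several, and every panel spanning 2 log2 units. C1qa and C1qb are highest on the WT control array and lowest on the KO control array, whereas C1s, C2, Cfb and C3 are highest on the WT Ang II array.

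The proteases C1r and C1s did not share the pattern of C1qa and C1qb. C1r, which activates C1s within the C1 complex, was at 6.24 on the KO Ang II array, 6.47 on the KO control array, 6.21 on the WT Ang II array and 5.97 on the WT control array. It was 1.42-fold higher in KO than in WT without Ang II (log2 ratio 0.51), and the 2 genotypes differed by 0.02 with Ang II. It was the only one of the 9 genes with both KO arrays above both WT arrays, a pattern found in 32.7% of 8597 genes above background on all 4 arrays.

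C1s, the protease that cleaves C4 and C2, was at 2.37 on the KO Ang II array, 2.83 on the KO control array, 3.19 on the WT Ang II array and 2.86 on the WT control array. Its second probe gave 2.21, 2.70, 3.03 and 2.66 in that order. Both probes placed the KO Ang II array lowest and the WT Ang II array highest. With Ang II, C1s was 1.76-fold lower in KO than in WT (log2 ratio -0.81, and -0.82 by the second probe). Without Ang II the ratio was -0.03 by one probe and 0.04 by the other, so the genotypes did not separate beyond the difference between probes.

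C2, Cfb and C3, which supply the convertases, were all higher with Ang II in WT vessels and were not higher in KO vessels. C2, the catalytic part of the classical convertase, was at 0.94 on the KO Ang II array, 1.101 on the KO control array, 1.52 on the WT Ang II array and 0.41 on the WT control array. The WT Ang II array was highest and the WT control array lowest, with the KO arrays between them. Ang II went with 2.15-fold higher C2 in WT vessels (log2 ratio 1.103), against a ratio of -0.17 in KO vessels.

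Cfb, the catalytic part of the alternative convertase, was at 1.65 on the KO Ang II array, 2.08 on the KO control array, 2.22 on the WT Ang II array and 1.63 on the WT control array. Its ratio for Ang II was -0.44 in KO vessels and 0.59 in WT vessels. As with C2, the KO control array lay above the WT control array (0.46 for Cfb, 0.69 for C2), while with Ang II the KO array lay below the WT array (-0.58 for each).

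C3, the protein on which all complement pathways converge, was at -1.04 on the KO Ang II array, -1.02 on the KO control array, 0.19 on the WT Ang II array and -0.37 on the WT control array. The KO arrays hardly differed from each other and lay below both WT arrays. C3 was 2.34-fold lower in KO than in WT with Ang II (log2 ratio -1.23) and 1.57-fold lower without (-0.65). Ang II went with 1.47-fold higher C3 in WT vessels (0.56), and the ratio of -0.02 in KO vessels turned to above 0 with quantile normalization or normexp background correction.

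C2, Cfb and C3 each rested on 1 spot. The error the scanner software assigned to that spot was at most 10.2% of the signal for C2 and Cfb, and up to 12.7% for C3, whose KO signals were 25.4 with Ang II and 23.4 without. With the other background correction tried, normexp, the log2 ratio of C3 in KO against WT with Ang II was -0.54, and that of C2 for Ang II in WT was 0.86, both under 2-fold.

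Serping1, the gene of the C1 inhibitor, varied least of the 9 genes over the 4 arrays. It was at 5.78 on the KO Ang II array, 5.996 on the KO control array, 6.04 on the WT Ang II array and 6.10 on the WT control array, a range of 0.33. That range was larger than that of 27.1% of genes above background on all arrays, whereas the range of C3, 1.23, was larger than that of 94.5%. Its ratios for KO against WT were -0.26 with Ang II and -0.11 without. Serping1 was also the only one of the 9 genes lower with Ang II in both genotypes, by ratios of -0.22 in KO and -0.07 in WT. The KO ratio was 0.03 with normexp background correction.

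C5ar1, the receptor for C5a, was at -0.84 on the KO Ang II array, -1.70 on the KO control array, -1.09 on the WT Ang II array and -0.58 on the WT control array. The KO control array stood lowest, and the KO Ang II array lay between the WT arrays. Without Ang II, C5ar1 was 2.17-fold lower in KO than in WT (log2 ratio -1.12), and with Ang II it was 1.19-fold higher in KO (0.25). Ang II went with 1.82-fold higher C5ar1 in KO vessels (0.86), against a ratio of -0.51 in WT vessels. The signal behind the lowest value was 14.6, with a scanner error of 15.5% on 1 spot, and the KO to WT ratio without Ang II was -0.39 with normexp background correction.

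The response to Ang II thus had opposite signs in the 2 genotypes for 8 of the 9 genes, all but Serping1. Among all genes above background on all 4 arrays the signs were opposite in 53.9%. C1r, C1s, C2, Cfb and C3 were higher with Ang II in WT and lower in KO, which held for 30.5% of all genes. C1qa, C1qb and C5ar1 were lower with Ang II in WT and higher in KO, which held for 23.4%. For C1r, at 10 spots, the ratios were -0.24 in KO and 0.24 in WT, with a spot SD for the difference of 0.061 and 0.086. The C3 response in KO had no stable sign, as given above.

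**Figure D2:**
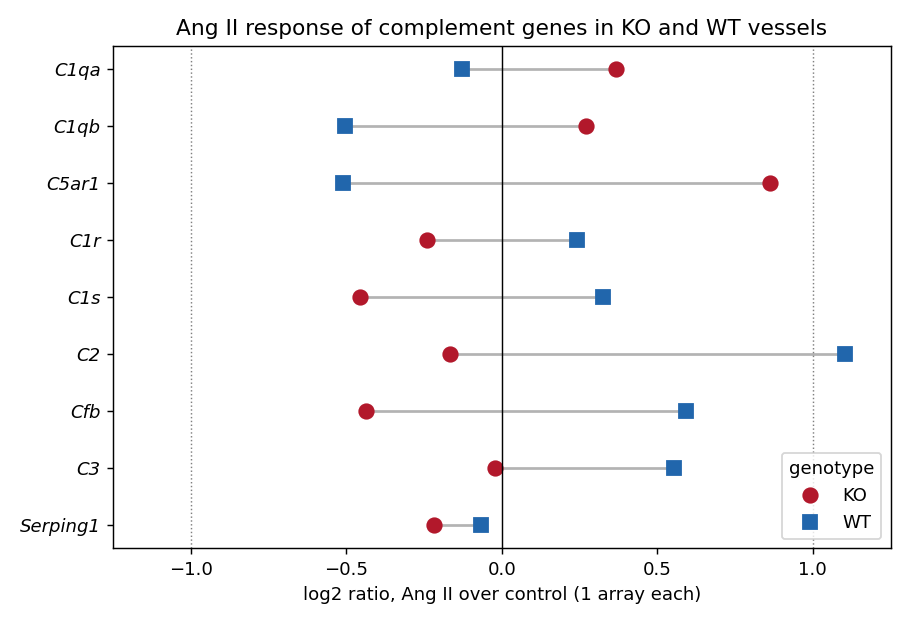
Log2 ratio of Ang II over control for each of the 9 genes in KO vessels and in WT vessels, with 1 array for each group and the line at 0 marking no difference. The convertase genes C2, Cfb and C3 lie above 0 in WT and below it in KO, and C1qa, C1qb and C5ar1 lie below 0 in WT and above it in KO.

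In KO vessels none of the 9 genes was 2-fold higher or lower with Ang II, where 0.442% and 1.40% of all genes were. In WT vessels C2 was 2-fold higher and none was 2-fold lower, where 2.02% and 0.998% of all genes were. Ang II ratios were above 0 for 3 of the 9 in KO vessels, against 48.8% of all genes, and for 5 of 9 in WT vessels, against 55.0%. The median ratio of the 9 was -0.17 in KO and 0.24 in WT, while the median of all genes was -0.0044 in KO and 0.04 in WT. No gene of the 9 had both Ang II arrays above, or both below, the control arrays, patterns held by 8.83% and 6.78% of all genes.

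The KO response minus the WT response was at least 2-fold higher for C5ar1 (log2 1.37) and at least 2-fold lower for C2 (-1.27) and Cfb (-1.03). Among all genes 1.27% and 2.87% passed these limits, and the difference was above 0 for 44.0%, against 3 of the 9. C1qb (0.78) and C1s (-0.78) followed, then C3 (-0.58), C1qa (0.50), C1r (-0.48) and Serping1 (-0.15). The median of the 9 was -0.48, beside -0.05 for all genes. Each difference rests on 4 arrays and was not tested. With normexp background correction none of the 3 passed 2-fold, at 0.51 for C5ar1, -0.96 for C2 and -0.76 for Cfb. Under the 75th percentile of detected probes Cfb was at -0.98.

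Without Ang II, 2 of the 9 genes, C1qb and C5ar1, were at least 2-fold lower in KO than in WT and none was 2-fold higher, where 4.05% and 2.91% of all genes were. With Ang II, C3 alone was at least 2-fold lower and none was 2-fold higher, where 5.19% and 1.95% were. Ratios above 0 were seen for 2 of 9 with Ang II, against 46.2% of all genes, and for 3 of 9 without, against 50.4%. The median of the 9 was -0.31 with Ang II and -0.11 without, while all genes had medians of -0.04 and 0.01.

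Both KO arrays lay below both WT arrays for C1qa, C1qb, C1s, C3 and Serping1, 5 of the 9, a pattern held by 31.2% of all genes. For C1s the gap between the genotypes was 0.03, and it did not hold with the mean of its probes. For Serping1, on 1 spot, the gap was also narrow, with the KO control array at 5.996 and the WT Ang II array at 6.04. The highest value stood on the WT Ang II array for C1s, C2, Cfb and C3, as for 32.2% of all genes. It stood on the WT control array for C1qa, C1qb, Serping1 and C5ar1, as for 20.1%. The lowest stood on the KO control array for C1qa, C1qb and C5ar1, as for 25.3%.

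The 1 test the design allows was limma's additive fit of genotype and treatment over 9383 genes. It has 1 residual degree of freedom, and any interaction of genotype and treatment enters its error. At a Benjamini-Hochberg adjusted p of 0.05, 0 genes passed for KO minus WT or for Ang II minus control in either direction, which is 0% of genes. At an unadjusted p of 0.05, limma had 10.9% of genes higher and 15.2% lower in KO, and 2.04% higher and 1.80% lower with Ang II.

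For KO minus WT, 2 of the 9 genes had an unadjusted p under 0.05, both lower. C3 differed by -0.94 ± 0.21 (SE; limma adjusted p = 0.118), with a 95% interval of -1.50 to -0.37. C1qb differed by -0.70 ± 0.24 (limma adjusted p = 0.180), and C1qa by -0.46 ± 0.19 (limma adjusted p = 0.229). For the remaining 6 the limma adjusted p lay between 0.336 for C1s and 0.935 for C2. None of the 9 had an unadjusted p under 0.05 for Ang II minus control. The estimate was 0.47 ± 0.35 for C2 and 0.27 ± 0.21 for C3.

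Markers of other cells differed between the arrays alongside these genes. Of 14 macrophage markers, 12 were above background on at least 1 array, and their summed scaled signal was 41.0 on the KO Ang II array, 35.2 on the KO control array, 73.3 on the WT Ang II array and 59.3 on the WT control array. Against WT, 10 of 11 measurable macrophage markers were lower in KO with Ang II (median log2 ratio -0.40) and 12 of 12 without (-0.56). The corresponding median was -0.26 for C1qa and C1qb with Ang II and -0.90 without. In WT vessels, where C1qa and C1qb were lower with Ang II, 7 of 12 macrophage markers were higher and 5 lower, with a median of 0.12. Mrc1 and Marco were not above background on any array. Cd163, known from tissue-resident macrophages, was not above background on the KO Ang II array, where it stood at -2.63. It was above background at -1.97 on the KO control array, -2.33 on the WT Ang II array and -0.67 on the WT control array.

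Fibroblast markers, 6 of 8 measured, had a median KO to WT ratio of -0.87 with Ang II (6 of 6 lower) and -0.51 without (4 of 6 lower). Their summed scaled signal was 309 on the KO Ang II array, 356 on the KO control array, 488 on the WT Ang II array and 465 on the WT control array. Smooth muscle markers were higher in KO, with medians of 0.56 with Ang II (6 of 7 higher) and 0.61 without (7 of 7 higher). Endothelial markers, 6 of 8 measured, had median KO to WT ratios of -0.12 with Ang II (4 of 6 lower) and -0.58 without (5 of 6 lower). Their median Ang II ratio was 0.34 in KO (4 of 6 higher) and -0.20 in WT (4 of 6 lower). Pecam1, Cdh5 and Tek had the signs of C1qa, C1qb and C5ar1 in both genotypes. Vwf had the opposite signs, while Kdr was lower and Cldn5 higher with Ang II in both genotypes. The summed scaled signal of the endothelial markers was 19.9 on the KO Ang II array and 18.3 on the KO control array. It was 21.5 on the WT Ang II array and 24.2 on the WT control array.

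Kit, the 1 of 3 mast cell markers above background, had Ang II ratios of 0.53 in KO and -0.84 in WT, and KO to WT ratios of -0.34 with Ang II and -1.72 without. Its difference of responses was 1.37, as was that of C5ar1, while Cpa3 and Ms4a2 were not above background. Ptprc and Coro1a, the leukocyte markers above background, had KO to WT ratios of -1.22 and -0.62 with Ang II and of -1.09 and -0.92 without. The adipocyte markers Adipoq and Fabp4 were lower in KO as well, at -1.22 and, as a bound, -1.24 with Ang II and at bounds of -2.34 and -1.80 without. The part of any of these cell types in the complement differences was not tested. None of 5 hepatocyte markers, Alb among them, and none of 5 neutrophil markers on the array was above background on any array.

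**Figure D3:**
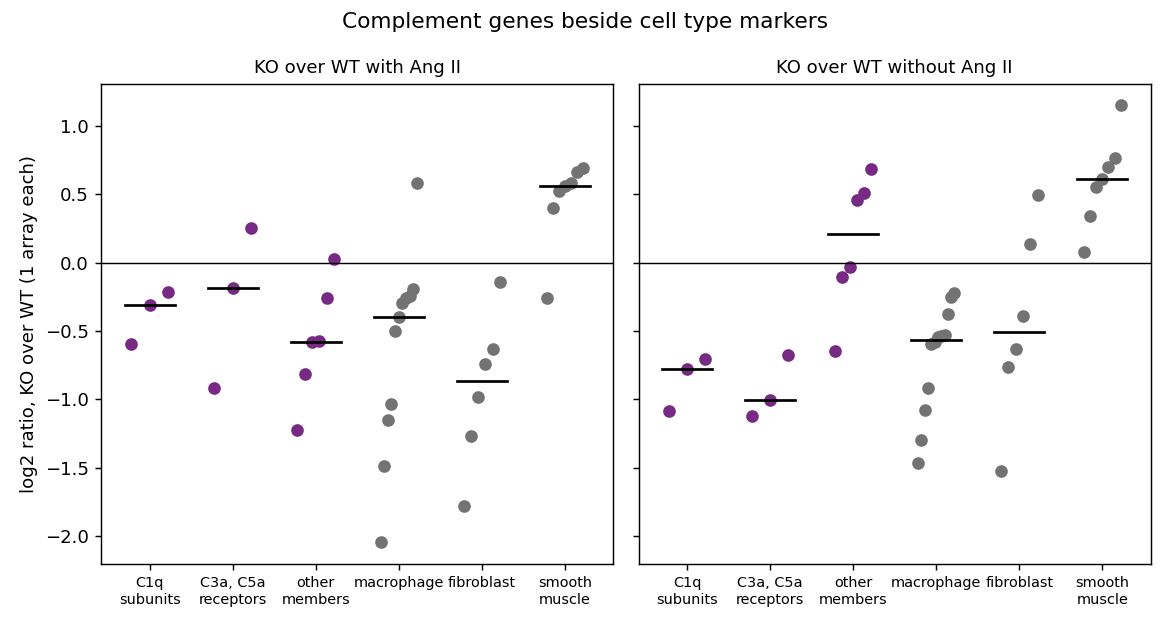
Log2 ratios of KO over WT with and without Ang II for the C1q subunits (C1qa, C1qb, C1qc), the receptors of C3a and C5a (C3ar1, C5ar1, C5ar2), the other 6 of the 9 genes, and macrophage, fibroblast and smooth muscle markers, with 1 point for each gene and a bar at the median. Of the macrophage markers 12 of 12 lie below 0 without Ang II and 10 of 11 with it, and C1qa and C1qb lie below 0 in both. Of the smooth muscle markers 7 of 7 lie above 0 without Ang II and 6 of 7 with it.

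Other complement genes of the pathway were taken from a list of 46, of which 40 were on the array and 19 were above background on at least 1 array. C3ar1, the receptor for C3a, was at -0.08 on the KO Ang II array, -0.27 on the KO control array, 0.84 on the WT Ang II array and 0.73 on the WT control array. Its KO arrays lay below its WT arrays by a log2 ratio of -0.92 with Ang II and -1.01 without, and its dimmer second probe also had both KO arrays below both WT arrays. Itgam and Itgb2, which together form complement receptor 3 of myeloid cells, had ratios of -0.63 and -0.93 with Ang II and of -0.77 each without. C5ar2, the second C5a receptor and genomic neighbour of C5ar1, was at -0.18 with Ang II and -0.67 without. Cd93 (-0.40 and -0.03) and C1qbp (-0.41 and -0.24), both first described as C1q receptors, were below 0 too, Cd93 hardly so without Ang II. All 6 measured receptors other than C5ar1 thus had ratios below 0 in both comparisons. Of these, Itgb2 and C5ar2 were dim, with signals of 10.1 to 24.9 and of 12.3 to 24.6, each on 1 spot. Among all genes, ratios above 0 were seen for 46.2% with Ang II and 50.4% without. C5ar1 was at 0.25 with Ang II and -1.12 without.

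Among the components, Cfd, the protease that activates factor B, had ratios for KO against WT of 0.03 with Ang II and -0.58 without. C4a, the C4 gene measured by a dim probe, was at -0.61 with Ang II and -0.999 without, the second value being a bound because the KO control array was not above background, while C4b was at 0.32 with Ang II and 0.20 without. A second, dimmer C4b probe had signals of 15.1 on the KO Ang II array, 14.2 on the KO control array, 31.1 on the WT Ang II array and 25.5 on the WT control array, the other direction. C4a and C4b are near-identical copies whose probes may share signal, so their directions are uncertain. Of the regulators, Cd46 was higher in KO (0.44 with Ang II, 0.46 without), by a dim probe with signals of 14.8 to 17.0 on 1 spot. A still dimmer Cd46 probe was above background only on the WT control array, at 9.92, against 4.02 on the KO control array, the other direction.

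With Ang II, 1 of the 19 passed 2-fold in KO vessels, where 1.40% of all genes were lower, and none was shown to pass it in WT vessels. The gene was Masp1, a protease of the lectin pathway, lower with Ang II by at least 2.28-fold in KO vessels, where its signal was not above background on the Ang II array and 14.4 on the control array. Cd55, a membrane regulator that dissociates convertases, had Ang II ratios of 0.17 in KO and 0.63 in WT. Clu, which blocks the terminal complex, had ratios of 0.22 in KO and 0.35 in WT. In KO against WT, 1 of the 19 passed 2-fold, C3ar1 without Ang II, where 4.05% of all genes were lower.

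For the 19 genes the median Ang II ratio was 0.06 in KO and -0.07 in WT, and for KO against WT it was -0.33 with Ang II and -0.10 without. In the additive fit 0 of the 19 passed an adjusted p of 0.05 in either effect. At an unadjusted p of 0.05, 5 were lower in KO (C1qc, C3ar1, C4a, Itgam and Itgb2) and 2 higher (Cd46 and Colec12), where 15.2% of all genes were lower and 10.9% higher. C3ar1 differed by -0.96 ± 0.15 between KO and WT (SE; limma adjusted p = 0.104). For Ang II, C1qc was higher and Masp1 lower at an unadjusted p of 0.05, as were 2.04% and 1.80% of all genes.

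**Figure D4:**
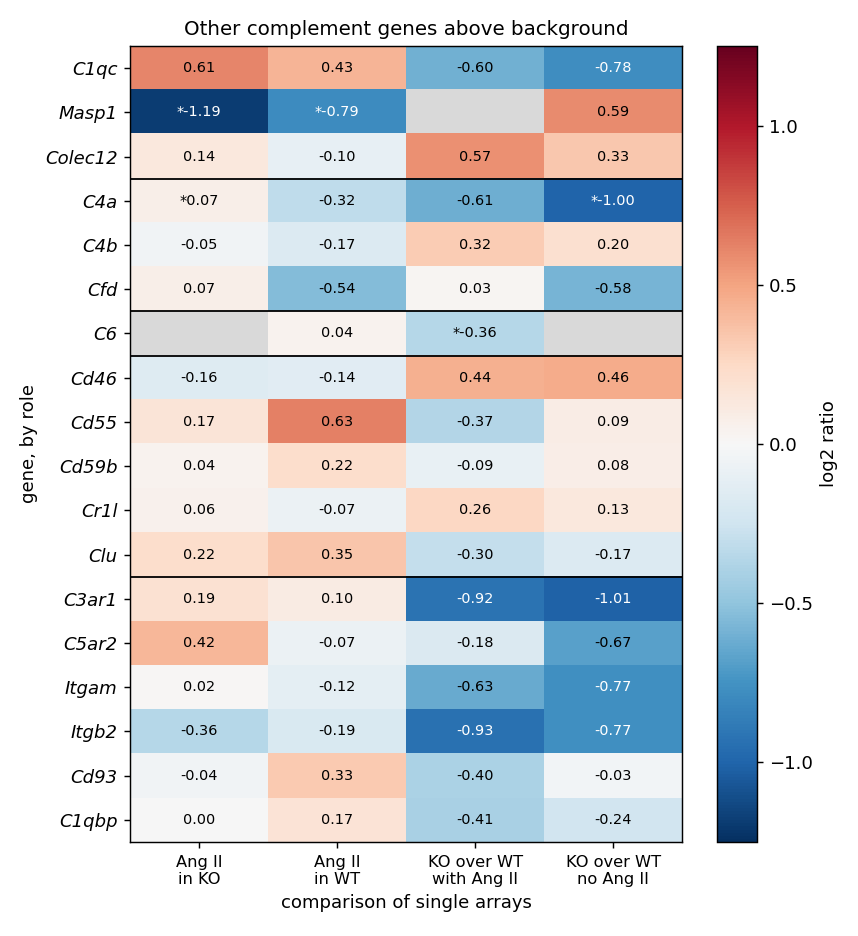
Log2 ratios in the 4 comparisons for other complement genes above background, grouped by role, with colour and printed value giving the ratio an asterisk for a bound because 1 array was not above background, and grey where no ratio was taken. The 6 receptors are below 0 in both comparisons of KO with WT, and among the regulators Cd55 lies furthest from 0, at 0.63 for Ang II in WT.

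Interferon-gamma and IL-6 are known inducers of local complement synthesis, and genes that respond to them were examined beside C2, Cfb and C3. Of 14 interferon-gamma response genes 10 were above background. With Ang II their median log2 ratio was -0.22 in KO, with 3 of 10 above 0, and 0.90 in WT, with 10 of 10 above 0. Tap1, which carries peptides for MHC class I loading, was at 1.74 in WT. For KO against WT their median was -1.12 with Ang II, with 10 of 10 lower, and -0.18 without. Of 14 IL-6 response genes 12 were above background, with median Ang II ratios of -0.15 in KO and 0.33 in WT. The convertase genes had median ratios of -0.17 in KO and 0.59 in WT. Whether the complement genes moved with either group beyond these 4 arrays was not tested.

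Likeness of pattern was measured as the root mean square difference of values centred over the 4 arrays, against 8532 other genes. Closest to C2 were Gstm2 (0.034), Oas1k (0.043) and Cdh22 (0.050). Closest to C1s were Gpc3 (0.015), Ccdc43 and Tmem97, to Cfb Arhgef40, Acy1 and Bnc2, and to C3 Diras1, Pigx and Tmem123. Closest to C1qa were Slc33a1, Slc35e1 and Anapc10, to C1qb Helz and Igfbp2, and to C1r Ogdh, Foxc1 and Phlda2. Serping1 was closest to Washc2c, Clk4 and Arl2, and C5ar1 to Adgrg6 (0.075), Riiad1 and Tf. Within the 9 genes, C1qb was the 1118th closest to C1qa (0.18) and C1qa the 219th closest to C1qb, while Cfb was the 241st closest to C2. The measure is not scaled for a gene's range over the arrays, which was 0.71 for C1qa and 1.09 for C1qb. With 4 arrays many genes come close to any pattern.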

How the data were processed

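Vessel RNA of KO and WT rats, with and without Ang II, was measured with 1 array for each group, all on 1 slide and 1 scan, so no slide block was fitted. The processed signal was deposited as an intensity after background subtraction within the array, per the file headers, with no normalization between arrays. Agilent Feature Extraction appears as version 12.1.1.1 in the submitters' processing notes and as 10.7.1.1 in the file headers. The value table deposited by the authors is on the log2 scale. For 98.3% to 98.4% of its probes it equalled log2 processed signal plus a constant for each array (tolerance 0.01), and its median was 2.11, 2.27, 2.22 and 2.30 for KO Ang II, KO control, WT Ang II and WT control. Its rows were matched to probes by probe name, and no source used here says how the constants were set.

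Control and outlier spots were left out (301 to 372 outlier spots for each array, no saturated ones), spots of a probe were averaged, and log2 was taken minus the array's 75th percentile of 45594 probes. That percentile lay at a signal of 52.1, 47.3, 62.4 and 58.7 on the KO Ang II, KO control, WT Ang II and WT control arrays. A probe counted as above background when at least 50% of its spots were flagged so. Accessions were named through the RefSeq gene table, which gave 1 gene for 21100 probes (16574 genes) and none for 24494, and the brightest probe stood for a gene. A ratio with 1 side not above background is a lower bound, set by the dimmest signals above background. Genes were named as follows: all 9 complement genes, any other complement gene above background, and the 3 genes closest in pattern to each of the 9. Some genes that these rules pick are not reported here. These genes and lists were chosen with earlier results of these data known. The additive fit (limma 3.58.1 in R 4.3.3, lmFit and eBayes, Benjamini-Hochberg adjustment, prior degrees of freedom 3.13) took genes above background on at least 2 arrays and was tested on simulated data. Arrays from separate animals are not shown by the labels, so p-values cannot be read as measuring the spread between animals. Their error is each gene's departure from additive effects over these 4 arrays, combined by limma with a prior over all genes. Alternatives were normexp background correction (offset 50), a 75th percentile of detected probes, quantile normalization, the mean of a gene's probes, the deposited value table, and only probes above background on the arrays compared. Normexp was planned on the mean pixel signal and was run on the median pixel signal. Signals near the median background of 19 to 22 limit C3, C5ar1 and C1qc, and also Itgb2, C5ar2 and Cd46 among the other complement genes. The number of arrays limits all precision.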

Additional observations from a re-analysis of the deposited data

Results flagged for a closer look

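For 8 of the 9 genes the log2 ratio of Ang II over control had one sign in KO vessels and the other in WT vessels, with 1 array for each group. The difference between the genotypes was not tested, and 53.9% of all genes above background on all 4 arrays had opposite signs too. C1qa was at 0.37 in KO and -0.13 in WT. C1qb, the B chain of C1q, was at 0.27 in KO and -0.51 in WT. C5ar1, the C5a receptor, was at 0.86 in KO and -0.51 in WT.

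Genes of the proteases and convertases ran the other way. C1r was at -0.24 in KO and 0.24 in WT, and C1s at -0.46 in KO and 0.32 in WT. C2 was at -0.17 in KO and 1.103 in WT, and Cfb at -0.44 in KO and 0.59 in WT. C3 was at -0.022 in KO and 0.56 in WT.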

How the results depend on the processing

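Of the 45 ratios of the 9 genes, 41 kept their sign under every alternative run. The exceptions were C3 for Ang II in KO (-0.02, at most 0.04), Serping1 for Ang II in KO (0.03 with normexp) and for the difference of responses (0.05 with normexp), and C1s for KO against WT without Ang II (0.0053 with the mean of probes). Not every alternative could change a sign. All 9 genes were above background on every array, so the limit to such probes left their ratios as they were. The mean of probes could change only C1s, the only gene with a second probe. The detected percentile shifts all ratios of a comparison alike, as the deposited table does for most probes. Normexp lowered most counts of at least 2-fold. Among the 9 genes it left 0 higher with Ang II in WT, 0 lower in KO with Ang II, 1 lower in KO without, and 0 higher and 0 lower in the difference of responses. Among all genes normexp gave 0 higher and 4 lower for Ang II in KO, against 41 and 130, and 29 and 8 for Ang II in WT, against 198 and 98. Between KO and WT it gave 18 and 137 with Ang II, against 188 and 501, and 25 and 89 without, against 280 and 389, and it gave 20 and 50 in the difference of responses. Normexp was run with an added offset of 50, beside 75th percentile signals of 47.3 to 62.4 on the arrays. An added constant makes the log2 ratios of dim probes smaller. For KO against WT without Ang II, the dim C5ar1 went from -1.12 to -0.39 and the brighter C1qb from -1.09 to -1.14. The part of the offset in the lower counts was not tested. With the 75th percentile of detected probes, or with quantile normalization, 1 of the 9 was lower in the difference of responses, against 2. Higher and lower calls for Ang II in WT were 163 and 122 with the detected percentile, and for Ang II in KO 55 and 102 with quantile normalization. With only probes above background on both arrays, fewer genes were counted: 11 higher and 42 lower for Ang II in KO, 105 and 48 for Ang II in WT, and 166 and 243 between untreated KO and WT. The additive fit on the deposited value table passed 8 genes as lower in KO, against 0. No paired analysis was possible because the groups share only the replicate number 1. For the same reason no array could be left out of a group. Slide as a block was not run, since all arrays lie on 1 slide.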
